A study of Mus musculus with 22 samples.

Results

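Horizontal fraction 6 is the last slab of a mouse brain cut along the horizontal plane, and it was compared here with the slabs next to it, horizontal fractions 4 and 5. The series holds 22 fractions of 3 brains, with 1 brain per section plane. It was made by Transcriptome Tomography, in which a brain is sliced along 1 axis, the slices are pooled into slabs and the RNA of each slab is hybridised to a microarray. The comparison used 3 of the 22 arrays. Fractions 4, 5 and 6 came from the same male C57BL/6J mouse, an inbred strain for which the labels name no transgene and no treatment, and whose age the titles put at 7 days after birth and the age entry at 3 days. They were chosen because they lay on the same slide and because the slope of their spike-in controls was inside the scanner software's accepted range, at 1.01, 1.01 and 1.00, while the slopes of fractions 1, 2 and 3 were outside it, at 0.891, 0.818 and 0.891. By the labels a slab was 100 slices, each 5 µm thick, or 500 µm in all. A thicker slab is stated elsewhere in the sources, so no depth in the tissue is given here. Nor did the labels say from which side of the brain fraction 1 was cut. Fraction 6 is called ventral below only because several genes of the hypothalamus, which forms the floor of the forebrain, were highest there, such as Avp, Oxt, Agrp and Rax. Others, such as Pmch and Hcrt, were highest in fraction 5.

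The floor of the brain holds the hypothalamus, whose neurons make peptide hormones. Vasopressin and oxytocin neurons of the supraoptic and paraventricular nuclei send their axons to the posterior pituitary. Neurons of the arcuate nucleus, beside the base of the ventricle, make the peptides that control feeding, growth hormone and the gonadal axis, and tanycytes line the ventricle there. The pituitary stalk hangs from the same surface. The outer face of the brain is covered by the meninges, whose fibroblasts make collagen and small proteoglycans and whose resident macrophages, called border-associated macrophages, differ in their genes from the microglia inside the tissue.

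The levels below are processed intensities on the log2 scale, set so that the array's own 75th percentile is 0, and 1 unit is a 2-fold difference. A probe was counted as higher in fraction 6 when it lay at least 1 unit above the higher of fractions 4 and 5, and as lower when it lay at least 1 unit below the lower of them. The distance to the nearer of these fractions is called the gap. Each fraction was measured on 1 array, so no test between fractions was possible and no p-value is given. As a guide to error, 399 probes were spotted 10 times on every array, and the SD between spots of 1 probe was 0.0551, 0.0716 and 0.0713 log2 units on arrays 4, 5 and 6 for bright probes and 0.302, 0.301 and 0.352 for dim ones. The scanner software's own error model gave about 0.20 log2 units for the gap of a bright probe. These errors hold neither the labelling of RNA nor the difference between animals. The levels are of bulk tissue, in which fewer cells of a type and less RNA per cell cannot be told apart.

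The promoters of 7 genes on which the results turn are shown, chosen from those with an entry in the RefSeq promoter table: the hormone genes Avp, Oxt and Pomc, the pituitary genes Cga and Tshb, and the macrophage genes Retnla and Ccl8. Each sequence holds the 200 bases before the start of the gene, in build GRCm38.p6, 5' to 3' on the strand of the gene. Avp lies at chr2:130582589-130582788 on the minus strand and Oxt at chr2:130575969-130576168 on the plus strand, and their start sites are 6419 bases apart on opposite strands. Pomc lies at chr12:3954745-3954944 (plus), Cga at chr4:34893579-34893778 (plus), Tshb at chr3:102782715-102782914 (minus), Retnla at chr16:48842409-48842608 (plus) and Ccl8 at chr11:82114985-82115184 (plus). Capitals mark matches to the motifs described next.
Avp: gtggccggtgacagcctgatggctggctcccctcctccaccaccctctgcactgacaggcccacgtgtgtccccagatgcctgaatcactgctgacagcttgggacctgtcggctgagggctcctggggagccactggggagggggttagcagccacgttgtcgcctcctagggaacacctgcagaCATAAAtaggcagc
Oxt: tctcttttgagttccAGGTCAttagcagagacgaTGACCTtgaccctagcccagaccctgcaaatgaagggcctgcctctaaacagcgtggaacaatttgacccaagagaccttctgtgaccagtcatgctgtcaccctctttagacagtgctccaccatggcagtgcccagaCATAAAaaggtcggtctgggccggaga
Pomc: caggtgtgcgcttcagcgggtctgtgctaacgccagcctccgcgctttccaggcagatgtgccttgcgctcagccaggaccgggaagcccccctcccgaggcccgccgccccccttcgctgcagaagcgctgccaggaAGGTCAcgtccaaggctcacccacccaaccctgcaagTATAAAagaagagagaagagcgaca
Cga: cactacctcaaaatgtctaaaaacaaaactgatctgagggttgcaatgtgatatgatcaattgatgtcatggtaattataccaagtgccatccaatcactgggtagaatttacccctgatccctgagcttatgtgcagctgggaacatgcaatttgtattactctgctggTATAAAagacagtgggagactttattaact
Tshb: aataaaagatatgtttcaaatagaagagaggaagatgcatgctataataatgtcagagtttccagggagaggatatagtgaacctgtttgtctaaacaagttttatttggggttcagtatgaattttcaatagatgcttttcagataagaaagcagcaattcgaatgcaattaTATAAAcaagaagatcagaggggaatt
Retnla: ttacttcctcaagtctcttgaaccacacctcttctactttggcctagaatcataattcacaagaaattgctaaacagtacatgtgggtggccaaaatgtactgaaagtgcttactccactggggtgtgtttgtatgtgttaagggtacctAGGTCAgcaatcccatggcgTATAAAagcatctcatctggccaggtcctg
Ccl8: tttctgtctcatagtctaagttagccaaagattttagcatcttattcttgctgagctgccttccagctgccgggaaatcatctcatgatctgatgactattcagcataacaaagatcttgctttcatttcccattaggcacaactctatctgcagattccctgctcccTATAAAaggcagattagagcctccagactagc

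The TATA box (TATAAA) began 25 bases before the start of Pomc, 30 before Cga, 27 before Tshb, 30 before Retnla and 32 before Ccl8. Avp and Oxt carried the variant CATAAA instead, 14 and 27 bases before the start, a form searched only after these sequences had been seen. TATAAA was then counted where it lay wholly between 45 and 15 bases before the start, on the gene's own strand. It stood in 2.36% of 27025 promoters and in 1.90% of 11912 promoters of genes in the comparison. The share was 6.80% of the 441 promoters of genes that were higher in fraction 6 and 0 of the 73 of genes that were lower. CATAAA, lying wholly in the same window, stood in 0.951%, 0.487%, 1.81% and 1.37% of the same sets. The match in Avp lies outside that window, so these shares do not cover it. Over the 250 bases before the start and on both strands, the nuclear receptor half-site AGGTCA was present in 13.8% of all promoters. AGGTCA occurred in Oxt on both strands, 185 and 166 bases before the start, and in Pomc and Retnla 62 and 50 bases before it. The homeodomain motifs TAATCC (6.38% of promoters) and TAAGCC (8.13%) were in none of the 7, which were searched over the 200 bases shown. No motif overlapped another in these promoters, and a match describes letters and not a bound site.

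Of 55600 probes, 30155 were well above background in fraction 6. Of these, 1150 were higher in fraction 6 than in both neighbours (3.81%) and 201 were lower (0.667%). For comparison, fractions 4 and 5 differed from each other by 2-fold or more for 1384 of the same probes (4.59%), 908 of them higher in fraction 4. Of the 1150 higher probes, 392 were well above background in neither fraction 4 nor 5, 94 in only 1 of them, and 664 on all 3 arrays. Among the higher probes 613 (53.3%) had their highest value of all 22 fractions in horizontal fraction 6, against 2123 (7.04%) of all tested probes, an excess that follows in part from having chosen them for a high value in fraction 6. The median difference between fraction 6 and the mean of fractions 4 and 5 was 0.01 over the 14573 genes measured on all 3 arrays, but among the 1255 brightest probes (6 and above) it was 0.40. Only probes with signal in fraction 6 entered. The 852 well above background in fractions 4 and 5 but not in 6 could therefore not be counted as lower. The share of lower genes below is limited in the same way. With signal on any of the 3 arrays 639 probes were lower. With normexp background correction 364 probes were higher and 69 lower, and without scaling of the arrays 489 and 1039.

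**Figure D1:**
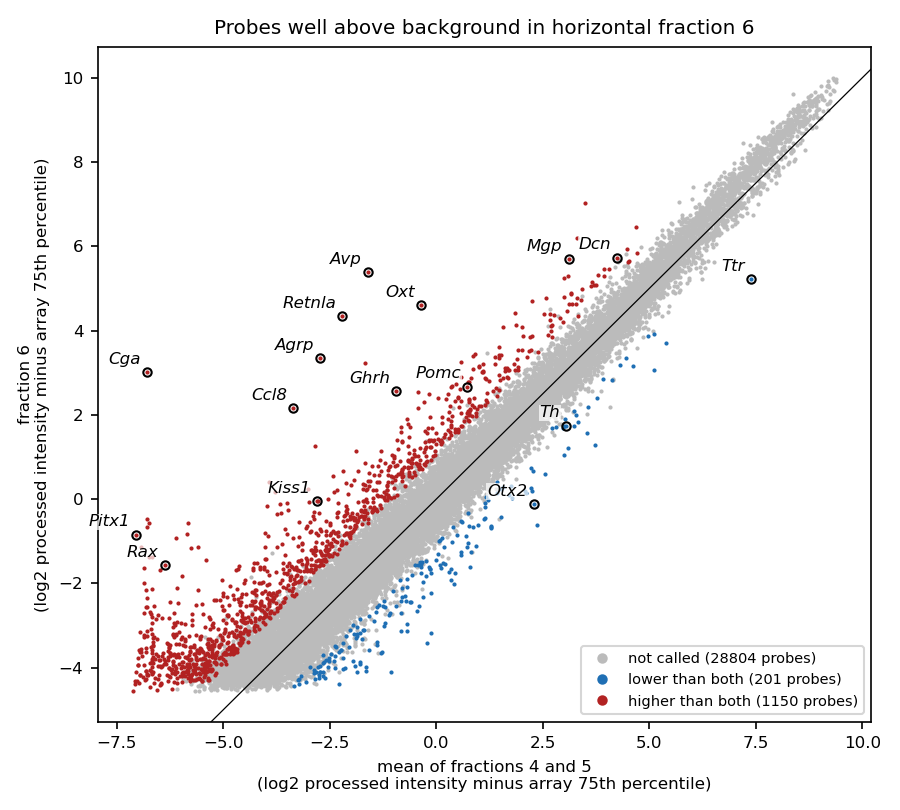
Level of each probe in horizontal fraction 6 (y axis) against the mean of fractions 4 and 5 (x axis), both as log2 processed intensity scaled to the 75th percentile, for the 30155 probes well above background in fraction 6. Red points are the 1150 higher probes, blue the 201 lower and grey the rest, and the line marks equal values. Cga, Avp, Retnla and Agrp lie farthest above the line among the labelled genes, and the brightest grey probes lie slightly above it.

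Read from 1 probe per gene, 613 of 15010 genes were higher in fraction 6 (4.08%) and 109 lower (0.726%). Among genes measured on all 3 arrays the shares were 3.13% and 0.748%. Of the 613 higher genes, 126 belonged to at least 1 of 39 gene lists of brain regions, cell types and neighbouring tissues, and of the 109 lower genes 38 did. The lists held 976 of the 20129 genes with a probe. Their share among the 15010 genes was not counted. Lists share some genes, so their counts do not add up.

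Several peptide hormones of the hypothalamus were higher in fraction 6. Of 36 neuropeptide and peptide-processing genes, 34 were well above background in fraction 6, 9 were higher there and none was lower, against 4.08% of all genes. The 9 were Avp, Oxt, Agrp, Pomc, Ghrh, Kiss1, Gnrh1, Nms and Trh. Over the 32 measured on all 3 arrays, 8 were higher and the median difference was 0.43, against 0.01 over all genes.

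Avp, which encodes vasopressin, the hormone of water retention, had levels of -4.04, 0.83 and 5.39 in fractions 4, 5 and 6. It was near the bottom of the measured range in fraction 4 and 23.6-fold higher in fraction 6 than in fraction 5. Oxt, which encodes oxytocin, the hormone of milk release and parturition, had levels of -2.91, 2.21 and 4.59, a gap of 5.23-fold. Both magnocellular hormones were thus already well above fraction 4 in fraction 5, and fraction 6 was their highest of all 22 fractions.

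Of the peptides made in the arcuate nucleus, Agrp, Pomc, Ghrh and Kiss1 were higher in fraction 6, and Npy (3.80, 3.99 and 3.74), Cartpt (2.08, 1.98 and 1.97) and Tac2 (0.51, 1.09 and 1.21), which are made in other regions too, were not called. Agrp, an antagonist of melanocortin receptors that drives feeding, had levels of -2.58, -2.86 and 3.34, so fractions 4 and 5 were alike and fraction 6 was 60.7-fold above the higher of them. Pomc, the precursor of the melanocortins, of beta-endorphin and of corticotropin, had levels of 0.77, 0.68 and 2.66, a gap of 3.71-fold. Ghrh, the releasing hormone of growth hormone, had levels of -1.31, -0.58 and 2.56, a gap of 8.81-fold. Kiss1, whose peptide stimulates the gonadotropin-releasing neurons, was read by 2 probes, with -2.88, -2.71 and -0.05 on the brighter and -4.73, -4.27 and -1.99 on the dimmer. Their gaps of 2.67 and 2.28 log2 units were close to each other. Agrp, Pomc, Ghrh and Kiss1 had their highest level of all 22 fractions in horizontal fraction 6.

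The remaining higher peptides were smaller or dimmer. Gnrh1, the gonadotropin-releasing hormone, was not well above background in fraction 4 and had levels of -4.45 and -2.86 in fractions 5 and 6. Nms, neuromedin S of the suprachiasmatic nucleus, had levels of -4.43, -3.81 and -2.51. Trh, the releasing hormone of thyrotropin, had levels of 1.53, 2.11 and 3.20, a gap of 1.09 that passed the 2-fold line narrowly.

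Other hypothalamic peptides did not share this step. Pmch (melanin-concentrating hormone) had levels of -2.40, 3.18 and 2.17, and Hcrt (hypocretin, or orexin) of -1.57, 2.92 and 1.12. Both are made in the lateral hypothalamus, and both were highest of the 3 in fraction 5. Npvf, a peptide of the dorsomedial nucleus, followed the same order, not well above background in fraction 4 and at -1.92 and -2.87 in fractions 5 and 6. Peptides that are also abundant outside the hypothalamus were not called: Sst had levels of 5.07, 5.77 and 5.25, Penk of 5.02, 5.54 and 5.38, and Cck of 6.69, 5.98 and 6.16. The list's brightest gene in fraction 6, Pcsk1n, an inhibitor of prohormone processing, had levels of 6.54, 6.87 and 6.54. Pcsk1n and Cck lie where the median difference over all probes was 0.40. Tac1, the precursor of substance P, reached its highest value of the 22 fractions in fraction 6, with levels of 4.03, 4.39 and 5.12, but its gap was under 2-fold. Qrfp and Pdyn were not well above background in fraction 6.

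**Figure D2:**
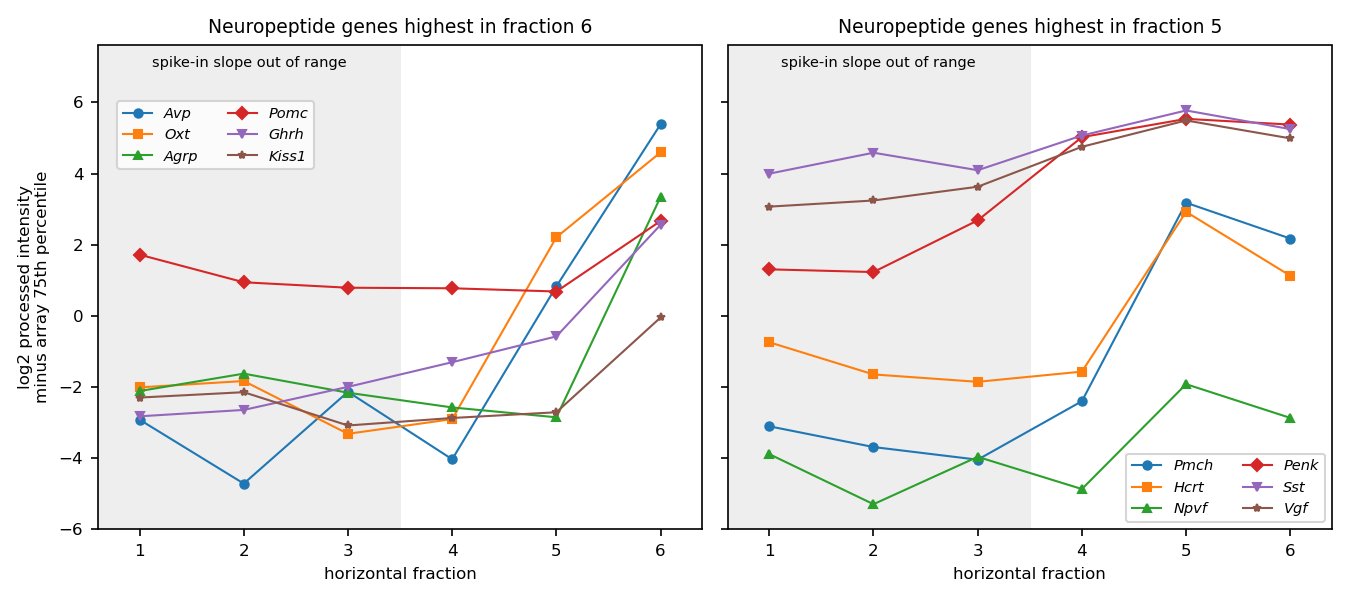
Levels of 12 neuropeptide genes along the 6 horizontal fractions (x axis), as log2 processed intensity scaled to the 75th percentile (y axis), 1 array per fraction. The left panel holds genes highest in fraction 6 and the right panel genes highest in fraction 5, and grey shading marks the fractions whose spike-in slope was out of range. Agrp stayed between -2.86 and -2.58 in fractions 4 and 5 and reached 3.34 in fraction 6, whereas Pmch and Hcrt peaked at 3.18 and 2.92 in fraction 5.

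Transcription factors of the developing hypothalamus were divided. Of 33 listed genes, 29 were well above background in fraction 6, 7 were higher (Rax, Six6, Fezf1, Tbx3, Isl1, Nkx2-4 and Hmx2) and 1 was lower (Lmx1a), against 4.08% and 0.726% of all genes. Only 3 of the 7 were measured on all 3 arrays, and over the 23 such genes, where the share higher over all genes was 3.13%, the median difference was 0.15. Without scaling of the arrays 4 were higher and 2 lower. Rax, the retina and anterior neural fold homeobox gene that marks tanycytes, had a level of -1.56 in fraction 6 and was not well above background in the others, so it was at least 9.33-fold higher. Six6, a homeobox gene of the optic and pituitary region, had a level of -1.13 in fraction 6, was well above background in neither of the others and was at least 11.4-fold higher. Tbx3, a T-box factor of the arcuate nucleus, had levels of -0.37, -0.16 and 1.35. Isl1, a LIM homeodomain factor that arcuate, striatal and motor neurons all use, had levels of -1.75, -0.92 and 0.58.

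Fezf1, a zinc-finger factor of the ventromedial hypothalamus, was not well above background in fraction 4 and had levels of -2.12 and -0.17 in fractions 5 and 6. Nkx2-4 had levels of -2.48, -2.12 and -0.78. Nkx2-1, the classical homeobox gene of the ventral hypothalamus, had levels of -3.92, -2.34 and -1.59, with its highest value of 22 fractions in fraction 6 but a gap under 2-fold. Nr5a1, a marker of the ventromedial nucleus, was not called, with levels of -1.75, -0.80 and -0.76, nor was Foxb1, of the mammillary body, with -1.22, 0.04 and 0.06. For both, fractions 5 and 6 were nearly equal. Sim1, Otp, Bsx and Sox14 were not well above background in fraction 6. Sim1 and Otp direct the formation of vasopressin and oxytocin neurons.

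The list of hypothalamic receptors and of dopamine and histamine genes held no higher gene. Of 23 genes well above background, 2 were lower, Th (2.92, 3.19 and 1.74) and Slc6a3 (1.65, 1.90 and 0.04), which encode the rate-limiting enzyme and the reuptake transporter of dopamine neurons, where 0.726% of all genes were lower. The rest of the list leaned the other way: of the 26 with a probe 14 lay above both other fractions and 6 below both, and the median difference over the 23 was 0.34. Of 15 tanycyte genes well above background, 3 were higher, against 4.08% of all genes. Besides Rax they included Col25a1, for which only 1 of 3 probes was called. Tanycyte genes that were not called were less sharply placed: Vim had levels of 4.02, 3.76 and 4.71, Nes of 2.11, 2.01 and 2.10 and Dio2 of 1.59, 1.34 and 1.36. The median over the 14 measured on all 3 arrays was 0.01.

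Of 24 listed pituitary genes, 14 were well above background in fraction 6 and 6 were higher, against 4.08% of all genes. Of the 6, 5 were not well above background in fractions 4 and 5. Of the 9 measured on all 3 arrays 1 was higher, with a share of 3.13% over all such genes. With normexp background correction 3 of the 14 were higher. Cga, the alpha subunit shared by thyrotropin and the gonadotropins, had levels of -6.97 and -6.61 in fractions 4 and 5, both not well above background, and of 3.01 in fraction 6. It was at least 221-fold higher. Pitx1, a homeobox gene of the pituitary and oral ectoderm, had levels of -7.17, -6.90 and -0.84 and was at least 15.3-fold higher. Tshb, the beta subunit of thyrotropin, had levels of -7.06, -6.57 and -2.16 and was at least 6.14-fold higher. Cga, Pitx1 and Tshb all had their highest value of the 22 fractions there.

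Bounds for other anterior lobe hormones were smaller. Prl, prolactin, had levels of -6.89, -6.52 and -3.51 and was at least 2.42-fold higher. For Gh, growth hormone, they were -5.49, -5.81 and -4.28, with a lower bound of 1.41-fold. Pou1f1, the factor that specifies the growth hormone, prolactin and thyrotropin cells, was not well above background in fraction 6, and neither were Fshb, Tbx19, Gnrhr, Pax7 and Hesx1. Pomc, described with the arcuate peptides, is also made by pituitary cells, and which of these cells gave its signal was not tested.

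**Figure D3:**
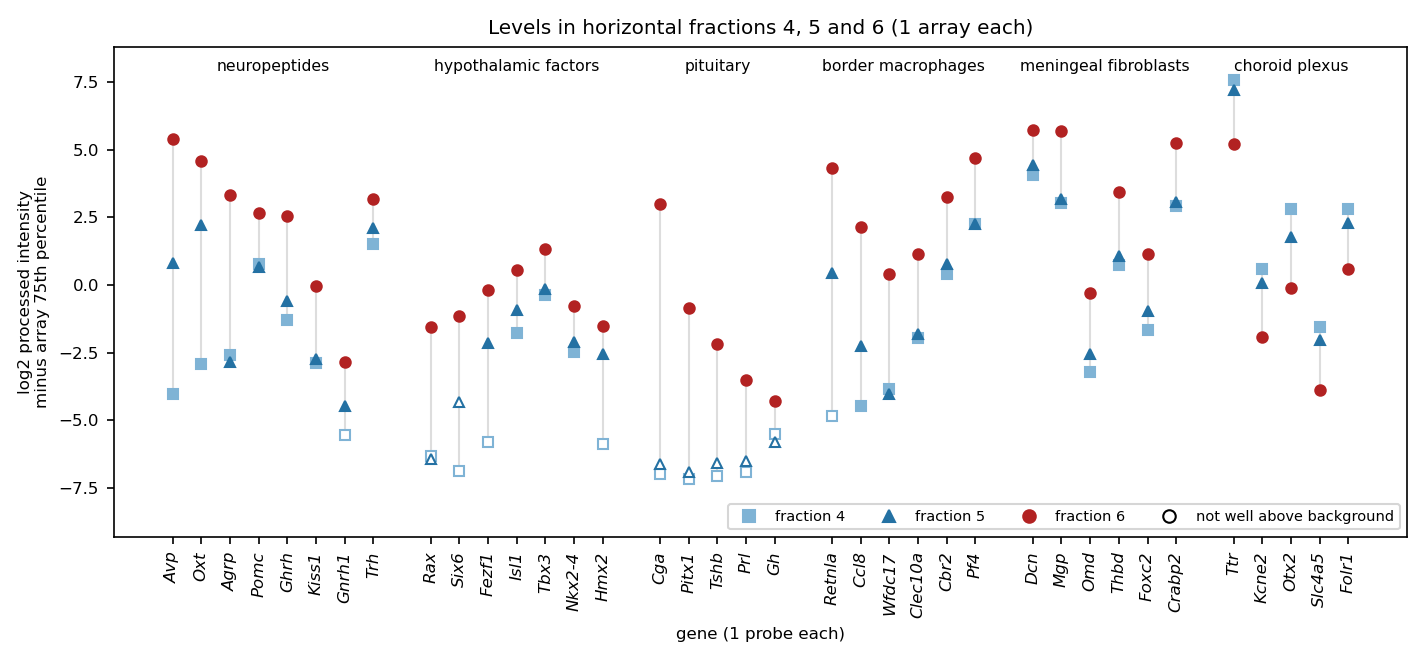
Levels of single genes (x axis, grouped by list) in horizontal fractions 4 (squares), 5 (triangles) and 6 (circles), as log2 processed intensity scaled to the 75th percentile (y axis), 1 array and 1 probe each. Open symbols are not well above background. Cga, Pitx1, Tshb, Prl and Gh are open in fractions 4 and 5 and filled in fraction 6, and the choroid plexus genes at the right show fraction 6 below both others.

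The broadest shift belonged to cells that cover the brain. Of 54 meningeal fibroblast genes well above background in fraction 6, 37 were higher and none lower, against 4.08% and 0.726% of all genes. Of the 52 measured on all 3 arrays 36 were higher (3.13% over all such genes), with a median difference of 1.55. Without scaling of the arrays 23 were higher. Of the 55 with a probe, 38 had their highest value of the 22 fractions in fraction 6, which follows in part from the 37 being higher there. The share was 7.04% of all tested probes and 53.3% of the higher ones. Dcn, decorin, a small proteoglycan that binds collagen, had levels of 4.06, 4.43 and 5.72, a gap of 2.45-fold. Mgp, an inhibitor of calcification in matrix, had levels of 3.05, 3.18 and 5.69, a gap of 5.73-fold and the widest of the list. Thbd, thrombomodulin, had levels of 0.73, 1.08 and 3.45, and Omd, osteomodulin, of -3.21, -2.54 and -0.30. In all 4 genes fractions 4 and 5 lay within 1 unit of each other and fraction 6 stood above them.

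Markers of the inner meningeal layers took part. Crabp2, which carries retinoic acid, had levels of 2.93, 3.08 and 5.24. Aldh1a2, which makes retinoic acid in the meninges, had levels of 1.21, 1.76 and 3.62. Foxc2, a forkhead factor of mesenchyme, had levels of -1.66, -0.95 and 1.15, and Foxc1 of 0.13, 0.45 and 2.06. Transporters of the arachnoid and pia moved the same way, Slc6a13 with levels of 2.33, 2.70 and 4.38 and Slc22a6 with 1.27, 1.65 and 3.34. The gap junction genes Gjb2 (1.07, 1.68 and 3.37) and Gjb6 (1.90, 2.17 and 3.88) were higher too, and Gjb6 is also an astrocyte gene. The brightest gene of the list, Ptgds, which makes prostaglandin D2, had levels of 8.12, 8.62 and 9.62 and was not called. Its gap lay just under 2-fold, at a level where the median difference over all probes was 0.40.

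Matrix genes counted by family gave smaller shares, set against 4.08% higher and 0.726% lower over all genes. Of 14 small leucine-rich proteoglycan genes well above background, 6 were higher (Dcn, Lum, Fmod, Ogn, Omd and Aspn), all of them also on the meningeal list. Lum had levels of 0.08, 0.19 and 1.95, Fmod of -0.87, -0.46 and 1.26 and Ogn of 0.99, 1.19 and 3.20. Aspn was not well above background in fractions 4 and 5 and at least 1.66-fold higher. Of 33 collagen genes well above background, 11 were higher and 1, Col9a3 of cartilage, was lower (-2.16, -2.62 and -3.84). Col3a1, of fibrillar collagen, had the widest gap among them, with levels of 2.28, 2.86 and 4.77, while Col1a1 had 2.14, 3.19 and 4.24.

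Border-associated macrophage genes were higher in a larger share still. Of 28 well above background in fraction 6, 21 were higher and none lower, where 4.08% of all genes were higher, and all 32 with a probe lay above both other fractions, 4 of them not well above background (Cd163, Timd4, Cd5l and Ms4a6b). Over the 27 measured on all 3 arrays, 20 were higher (3.13% over all such genes) and the median difference was 1.97. Ccl8, a chemokine that attracts monocytes, had levels of -4.47, -2.24 and 2.15, a gap of 21.0-fold. Retnla, a secreted product of alternatively activated macrophages, was not well above background in fraction 4 and had levels of 0.45 and 4.34 in fractions 5 and 6, a gap of 14.8-fold. Wfdc17 had levels of -3.85, -4.02 and 0.40. For Ccl8 and Retnla fraction 5 lay between the others, and for Wfdc17 fractions 4 and 5 were alike.

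Several surface receptors of these macrophages were higher too, while 7 of the 28 genes were not called. Mrc1, the mannose receptor, had levels of 0.52, 0.61 and 2.61. Lyve1, a hyaluronan receptor, had levels of -1.59, -1.49 and 0.42, and Clec10a, a galactose-binding lectin, of -1.95, -1.82 and 1.13. Pf4, platelet factor 4, had levels of 2.24, 2.27 and 4.70. Cbr2, a carbonyl reductase, had 2 probes that were both higher, with 0.40, 0.79 and 3.25 on the brighter and a smallest gap of 2.46. Mrc1, Lyve1, Clec10a, Pf4 and Cbr2 were almost level between fractions 4 and 5.

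Of 20 microglial genes well above background, 1 was higher, Tyrobp, a signalling adaptor of all myeloid cells (3.33, 3.03 and 4.62), a count near the 4.08% of all genes. The median difference was 0.70, and 17 of the 20 lay above both other fractions. Of the 20, 11 had their highest value of the 22 fractions in fraction 6, against 7.04% of all tested probes. Genes that macrophages share included C1qa (2.09, 2.08 and 3.06) and Aif1 (2.56, 2.34 and 3.55). Among markers that set microglia apart from macrophages, Tmem119 had levels of 0.65, 0.78 and 1.45, P2ry12 of 0.34, -0.18 and 0.69 and Sall1 of -1.08, -0.98 and -0.78.

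Vessel, blood and immune cell lists were counted too, against 4.08% higher over all genes. Mast and immune cell genes were higher in 6 of 16, among them the mast cell protease Cpa3 (-3.88, -4.14 and -1.42) and Mcpt4 (-1.36, -1.56 and 0.56). Neutrophil granule genes were higher in 5 of 15, S100a8 with levels of -2.57, -3.06 and -0.81 and S100a9 with -0.64, -1.45 and 1.05. Both were lower in fraction 5 than in fraction 4. None of the 15 had its highest value of the 22 fractions in fraction 6, and S100a8 and S100a9 were higher in horizontal fraction 1 (0.51 and 2.06) and in sagittal fraction 6 (1.90 and 3.09). Set against the mean of fractions 4 and 5, the median over the 15 was 1.16, 0.89 and 0.38 in horizontal fractions 1, 2 and 6. Smooth muscle genes of vessels led the 6 of 21 mural genes that were higher: Tagln had levels of 1.81, 2.21 and 4.08, Acta2 of 0.58, 1.44 and 3.12 and Cnn1 of -2.04, -1.28 and 0.85. Endothelial genes were higher in 3 of 31 (Itm2a, Vwf and Bmx), with a median difference of 0.19. Of the 31, 8 had their highest value of the 22 fractions in fraction 6, against 7.04% of all tested probes. Vwf, of larger vessels, had levels of 2.50, 2.72 and 3.90. Red cell genes were higher in 1 of 15, the embryonic globin Hbb-y, and in 0 of the 13 measured on all 3 arrays.

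Genes of tissue outside the brain were counted as well, against 4.08% higher and 0.726% lower over all genes. Bone and cartilage genes were higher in 6 of 28 and lower in 1, with Ctsk of osteoclasts at 1.19, 1.13 and 2.35 and Comp at -4.56, -4.16 and -2.52. Of the 36 with a probe, 18 lay above both other fractions and 12 below both. The median difference over the 26 measured on all 3 arrays was 0.10. None of the 36 with a probe had its highest value of the 22 fractions in fraction 6, and Ctsk stood at 3.03 and Acp5, another osteoclast gene (-0.67, -0.19 and 1.03), at 3.92 in sagittal fraction 6. Skeletal muscle genes were higher in 3 of 24 (Tnnt3, Chrna1 and Mybpc2). Over the 21 measured on all 3 arrays 1 was higher (3.13% over all such genes), and the median difference was -0.03. Chrna1 and Mybpc2 were dim, at -2.87 and -3.67 in fraction 6, while Tnnt3 was well above background on all 22 arrays, with levels of -1.82, -1.97 and -0.68 on its brighter probe. Sensory ganglion genes were higher in 3 of 31 and lower in 2, and Schwann cell genes higher in 1 of 23. Olfactory genes were higher in 3 of 26 and lower in 5. Inner ear and pigment genes were higher in 1 of 12, Gjb2. The part of these tissues in the values of fraction 6 was not tested.

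**Figure D4:**
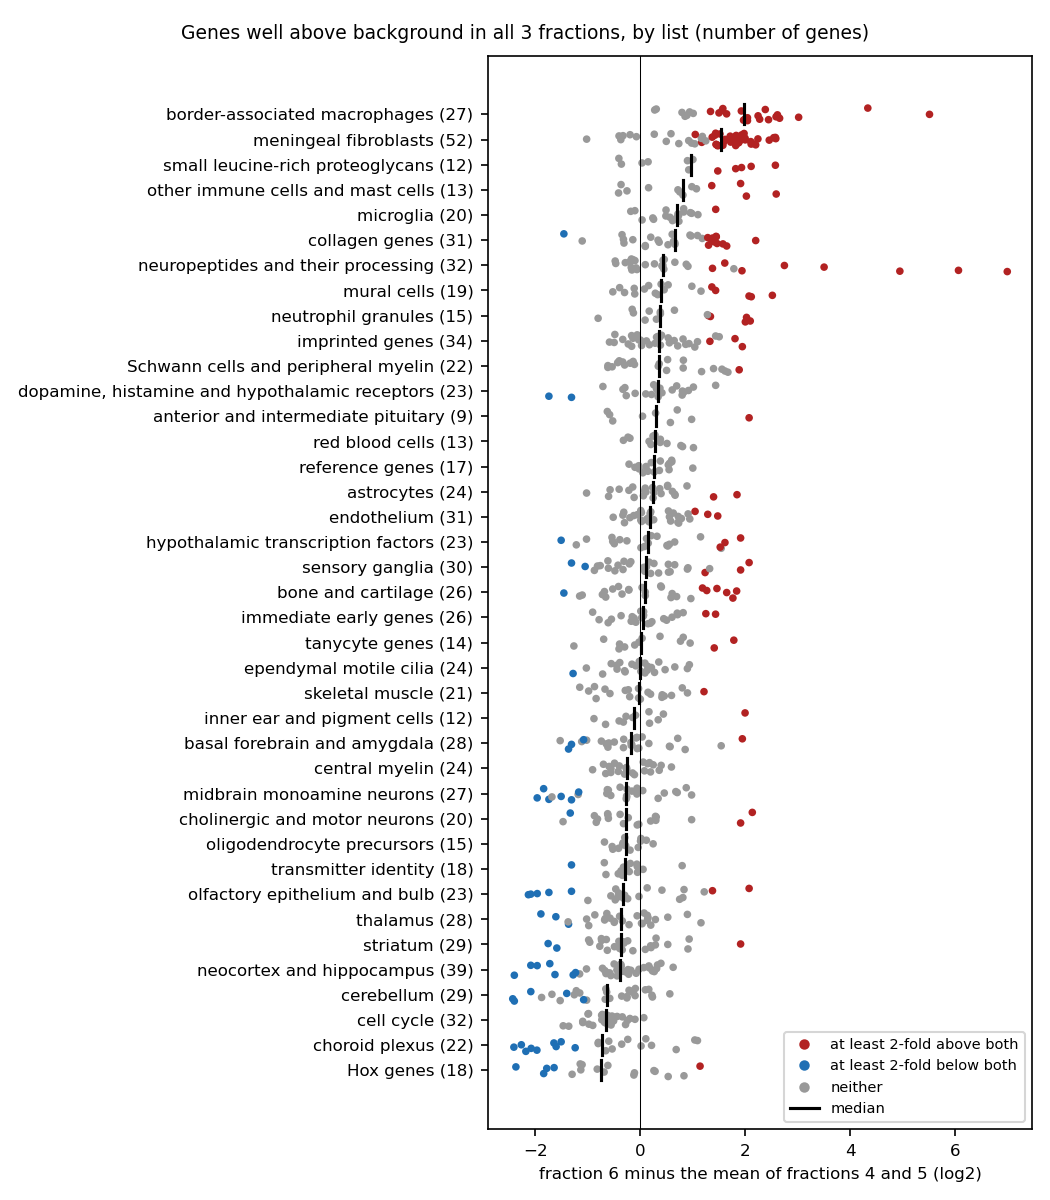
Difference between horizontal fraction 6 and the mean of fractions 4 and 5 in log2 units (x axis) for every gene well above background in all 3 fractions, 1 point per gene and 1 row per gene list, with the number of genes in brackets. Red points are at least 2-fold above both fractions, blue points at least 2-fold below both, grey points neither, and the bar is the median. Border-associated macrophages (1.97) and meningeal fibroblasts (1.55) have the highest medians, and choroid plexus (-0.73) and Hox genes (-0.75) the lowest on this scale. With normexp background correction the Hox median was -0.14.

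Few glial genes inside the tissue were called. Of 24 astrocyte genes, 2 were higher, against 4.08% of all genes, Gjb6 and Gfap, the intermediate filament of the glia that line the brain surface. All 3 probes of Gfap were higher, and the brightest had levels of 3.06, 3.06 and 4.46. None of 24 central myelin genes, 16 oligodendrocyte precursor genes or 17 reference genes was called in either direction, and the medians were -0.26, -0.28 and 0.27. That of the reference genes was 0.03 with quantile normalization. The myelin median was -0.53, 0.53 and -0.26 in fractions 4, 5 and 6, set against the mean of fractions 4 and 5, so fraction 6 lay between the others. Nor was any of 33 cell cycle genes, but 24 of the 35 with a probe lay below both other fractions. Set against the mean of fractions 4 and 5, their medians were 0.49, -0.49 and -0.65 in fractions 4, 5 and 6, so most of the difference lay between fractions 4 and 5. Imprinted genes were higher in 3 of 34 (Dlk1, Slc22a18 and Mirg), where 4.08% of all genes were. Dlk1, a Notch-like protein that hypothalamic and pituitary cells express, was higher on both of its probes, the brighter with levels of 0.90, 2.03 and 3.41. Immediate early genes were higher in 2 of 26, against the same 4.08%. These were Klf2 (0.88, 0.67 and 2.03) and Klf4 (-0.93, -0.69 and 0.62), which endothelial cells also use.

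Lower values in fraction 6 belonged first to the choroid plexus, the epithelium that secretes cerebrospinal fluid inside the ventricles. Of 22 genes well above background, 9 were lower and none higher, against 0.726% of all genes, and the median difference was -0.73. Ttr, transthyretin, the plexus's main secreted protein, had levels of 7.57, 7.21 and 5.22, a gap of 3.99-fold. Otx2, the homeobox factor that specifies the plexus, had levels of 2.80, 1.77 and -0.12. Kcne2, a potassium channel subunit of its apical membrane, had levels of 0.61, 0.10 and -1.91. Folr1, its folate receptor, was lower on both probes, the brighter with 2.83, 2.29 and 0.59. Slc4a5, Steap1, Sostdc1, Lmx1a and Aqp1 made up the rest. All 9 but Lmx1a were highest of the 6 horizontal fractions in fraction 4, and Lmx1a was highest in fraction 5. Kcnj13, another plexus potassium channel, went the other way, with levels of 0.69, 0.51 and 1.28.

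Several neuronal lists held lower genes and few or no higher ones, where 0.726% of all genes were lower. Neocortical and hippocampal genes were lower in 7 of 39 (4 with normexp background correction, 11 without scaling), Eomes with levels of 0.88, 0.77 and -1.26 and Neurod6 with 2.14, 1.29 and 0.09. Nr4a2 and Neurod1 were lower on both of their probes. Midbrain monoamine genes were lower in 6 of 27: besides Th, Slc6a3, Nr4a2 and Lmx1a these were Chrna6, a nicotinic subunit of dopamine neurons (-0.77, -0.43 and -2.44), and Gata3. Cerebellar genes were lower in 5 of 29, led after Eomes by Atoh1, the factor of granule cell precursors (-0.77, -2.54 and -4.08). That gene had already dropped between fractions 4 and 5. The median of the cerebellar list, set against the mean of fractions 4 and 5, was 0.33, -0.33 and -0.64 in fractions 4, 5 and 6.

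Of 19 Hox genes well above background, which mark the hindbrain and spinal cord, 4 were lower (Hoxb7, Hoxb6, Hoxa5 and Hoxb5) and 1 higher (Hoxc12), against 0.726% and 4.08% of all genes. Hoxb5 had levels of -0.02, 1.52 and -1.03, so fraction 5 was the highest. Over the 18 Hox genes measured on all 3 arrays the medians in fractions 4, 5 and 6, set against the mean of fractions 4 and 5, were -0.69, 0.69 and -0.75, so fraction 5 stood apart and fractions 4 and 6 were close. Thalamic genes were lower in 3 of 28, with Ebf3 at 2.24, 1.93 and 0.19, and striatal genes in 2 of 29, with Adora2a, the adenosine receptor of indirect-pathway neurons, at 0.91, 1.03 and -0.62. Isl1 was the only higher gene on the striatal list. Basal forebrain and amygdala genes were lower in 3 of 28 and higher in 1, Dlk1. Olfactory bulb projection neurons were represented among the 5 lower olfactory genes by Tbx21 (-0.37, -0.44 and -2.53) and Cdhr1 (1.95, 2.24 and 0.14). Of 24 ependymal cilium genes, 1 was lower, Dnah5, and among 18 genes of transmitter identity 1 was lower, Th. Cholinergic and motor neuron genes were higher in 2 of 21 (Isl1 and Aldh1a2) and lower in 1, Esrrg.

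Genes with several probes offered a check of the spot and the probe, though not of the sample. Of 3871 genes with 2 or more probes well above background in fraction 6, every probe was higher for 43 (1.11%) and every probe was lower for 7 (0.181%). At least 1 probe was higher for 115 and lower for 36, and no gene had 1 probe higher and another lower. With normexp background correction every probe was higher for 14 genes and lower for 1, all of them among the 43 and 7. Ranked by the smallest gap of their probes, the first 20 of the 43 were Cbr2, Asgr1, Kiss1, Sult1a1, Hbb-y, Pdzk1ip1, Trim63, Dnajc5b, Gsta3, Bglap3, Anxa1, Ranbp3l, F13a1, Lox, Amy2a5, Gstm2, Tpm2, Oas1a, Serping1 and Casp4, with smallest gaps from 2.46 down to 1.34. Of all 43, 10 were on a gene list, as were 976 of the 20129 genes with a probe.

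Sult1a1, a phenol sulfotransferase, had levels of 0.43, 0.73 and 2.89 on its brighter probe and 0.22, 0.31 and 2.49 on the other. Gsta3, a glutathione transferase, had levels of -3.06, -3.26 and -1.05, and Gstm2 was higher on all 3 of its probes. Asgr1, a galactose-binding receptor known from liver, had levels of -0.90, -0.48 and 1.89 and of -3.77, -3.49 and -1.07. Anxa1, an annexin of myeloid and mesenchymal cells, had levels of 0.25, 0.50 and 2.68, and Bglap3, an osteocalcin-related gene, of -1.98, -1.04 and 0.78. Osteocalcin genes are close copies of each other, so the probe of one can also read the others. Trim63, a muscle ubiquitin ligase, and Hbb-y were dim, and at least 1 of their probes was not well above background in fraction 4 or 5. The same held for a probe of Pdzk1ip1, Dnajc5b, Ranbp3l, F13a1 and Lox, and for both probes of Amy2a5. The dimmer probe of F13a1 stood at only -3.96 in fraction 6.

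The 7 genes lower on every probe were Skor1, Esrrg, Nr4a2, Folr1, Sp8, Neurod1 and Sostdc1, with smallest gaps from 1.47 down to 1.02 below the lower of fractions 4 and 5. Skor1, a corepressor of neurons, had levels of 1.64, 0.94 and -0.69 on 1 probe and 0.99, 0.15 and -1.32 on the other. Esrrg, an orphan nuclear receptor, had levels of 0.14, 0.24 and -1.14. Nr4a2, an orphan nuclear receptor required by dopamine neurons, had levels of 2.33, 2.14 and 0.27 and of 0.64, 0.35 and -0.85. Fractions 4 and 5 of Nr4a2 and Esrrg were nearly level, and fraction 6 was apart from both.

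Long non-coding RNA was measured by 4795 probes well above background in fraction 6, of which 198 were higher (4.13%) and 23 lower (0.480%), near the shares of all probes (3.81% and 0.667%). Of 1201 intervals with 2 or more such probes, all probes were higher for 4 and lower for 0. In mm9, the build of the array design, these 4 lay at chr13:104591573-104599048 on the forward strand (2 probes, gaps of 1.40 to 1.65), at chr1:175653557-175671940 on the reverse strand (3 probes, 1.39 to 2.65), at chr16:40283097-40284822 on the forward strand (2 probes, 1.32 to 1.35) and at chr15:32167516-32174427 on the reverse strand (5 probes, 1.02 to 1.15). Their genes were not annotated here.

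The coronal and sagittal series, each from another mouse, placed the same genes along the other axes. Coronal fractions 1 and 2 and sagittal fractions 1 and 3 had spike-in slopes out of range, which bears on every rank among the 22 fractions. In the coronal series 4 of the 9 higher neuropeptide genes were highest in fraction 6, and the mean of the 9, taken as the deviation of each gene from its own mean over the series, was 1.43 there and 1.25 in fraction 7. In the sagittal series 7 of the 9 were highest in fractions 3 or 4, in the middle of the 6. The exceptions were Pomc and Kiss1, both highest in sagittal fraction 6, at 1.79 for Pomc and -2.32 for the brighter probe of Kiss1. Both probes of Kiss1 were also highest in coronal fraction 2, while Pomc was highest in coronal fraction 6. In the horizontal series Pomc stood at 1.72 in fraction 1, above its 0.77 in fraction 4. The 7 higher transcription factors had their highest mean deviations in the same slabs, 1.36 in coronal fraction 6 and 0.91 in sagittal fraction 4.

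Meningeal and macrophage genes were placed elsewhere. Of the 37 higher meningeal genes, 27 were highest in coronal fraction 4 and 8 in coronal fraction 10, and 26 in sagittal fraction 6. The macrophage genes had their highest mean deviations in coronal fraction 10 (0.67) and sagittal fraction 6 (0.82), and 16 of 21 were highest in sagittal fraction 6. Retnla was among the exceptions. It was highest in coronal fraction 8 (2.34) and sagittal fraction 2 (1.09), and it stood at -2.85 in horizontal fraction 1. In the horizontal series itself both groups were also above their own mean in fraction 1, at the opposite face, by 0.58 for the meningeal and 0.49 for the macrophage genes, whereas the neuropeptide genes were 0.94 below it there. Fraction 1 had a spike-in slope out of range, so its values are given as a description. The 9 lower choroid plexus genes had their highest mean deviations in horizontal fraction 4 (1.46) and coronal fraction 3 (1.87).

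**Figure D5:**
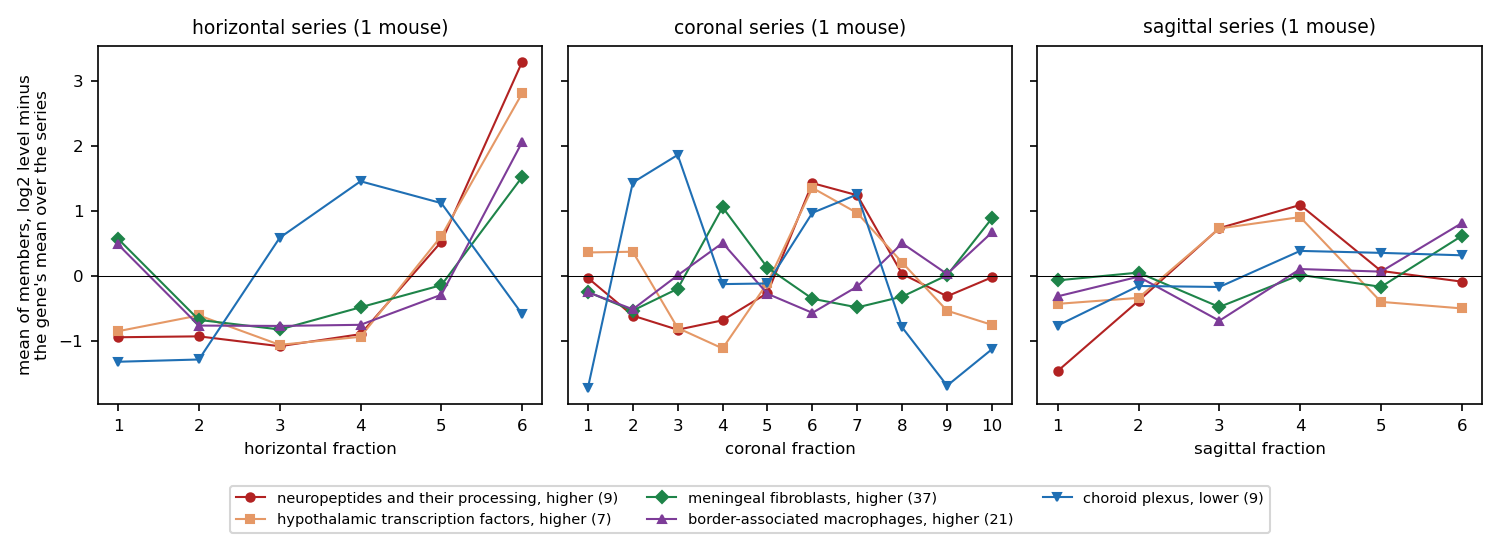
Mean level of the genes called in horizontal fraction 6, by list, along the fractions (x axis) of the horizontal, coronal and sagittal series, each from 1 mouse. The y axis is the log2 level minus the gene's mean over the series, averaged over the members (number in brackets). The horizontal panel holds the fractions from which the genes were called, so its step at fraction 6 follows from that choice. In the other panels the neuropeptide and transcription factor lines peak at coronal fraction 6 and sagittal fraction 4, and the meningeal line at coronal fraction 4 and sagittal fraction 6.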

How the data were processed

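Total RNA of 22 brain fractions was measured on Agilent SurePrint G3 Mouse arrays in 1 colour, 1 array per fraction, and groups were taken from the section plane and slab number in the labels. Per the file headers, the authors extracted spots with Feature Extraction 10.10.1.1, whose processed intensity is background-subtracted and linear. A table of log2 values that the authors deposited as well was compared with it. Over 47478 matched probes, 99.9% of those values lay within 0.02 of the log2 intensity less the 75th percentile of each array, the scale used here, with column medians of -2.73, -2.76 and -2.72 for fractions 4, 5 and 6.

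Control spots and outlier spots (177, 164 and 137 on arrays 4, 5 and 6) were left out, no spot was saturated, and spots of 1 probe were averaged. A further 81 probes without a value on every array were dropped. The 75th percentiles were 464, 338 and 279, and 32152, 30005 and 30184 probes were well above background before those 81 were dropped. The number of arrays limits the precision. Of 28087 probes with a RefSeq identifier, 26553 were matched to 20129 symbols. The symbols came from a RefSeq gene table of another build, used for names only. For each gene, the probe whose median over the 22 arrays was highest was read.

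Probes well above background in fraction 6 entered. A gene well above background in neither fraction 4 nor 5 is given as at least N-fold higher, from the higher of each array's floor (the lowest signal among probes above background) and the probe's own value, averaged over both arrays. Genes were named by rule: the 5 marker genes Avp, Oxt, Retnla, Dcn and Pomc, the first 20 higher and 12 lower genes with 2 or more probes, and up to 5 called and 3 uncalled members of each list. Other list members named in the text were chosen after their values were seen. The comparison, its members and the lists were chosen with earlier results of these data known. Counting was tested on simulated data. Tools were Python 3.11.15, pandas 2.3.3, numpy 2.4.6, matplotlib 3.10.9 and, for the normexp alternative, R 4.3.3 with limma 3.58.1. The mean signal planned for normexp was replaced by the median signal of the spot, with an offset of 50. Alternatives changed the reference fraction, the fold, the scaling, the background correction and the filter. Some list members are counted but not reported by name here. Promoters came from the RefSeq table of GRCm38.p6.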

Additional observations from a re-analysis of the deposited data

How the results depend on the processing

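No paired analysis was possible because each fraction was measured on 1 array and the slab number marks a position, not a replicate. Besides the counts reported above, 14 alternatives were run. Against fraction 5 alone, 2241 probes were higher and 573 lower, with 13 genes lower on all probes. Against fraction 4 alone, 673 probes and 25 genes were lower, 66 genes were higher, and 71.1% of the called probes were higher, where the main setting gave 85.1%. Against the mean of both, 419 probes were lower. A 4-fold threshold left 276 probes higher and 14 lower, with 5 and 0 genes. At 1.5-fold there were 2727 and 970 probes, and 112 and 22 genes, 73.8% of the called probes being higher. With normexp correction 364 probes were higher and 69 lower, with 14 genes and 1 gene, all of them among the 43 and 7. Without any scaling of arrays 489 probes were higher and 1039 lower (32.0% higher), with 17 and 25 genes, since the array of fraction 6 had the lowest 75th percentile of the 3. This moved the median difference of all genes from 0.01 to -0.49, so that lists with small positive medians, the neuropeptides (-0.08) among them, turned negative, while border-associated macrophages (1.46) and meningeal fibroblasts (1.04) stayed positive. Over the alternatives that kept the 2-fold threshold, 7 to 13 neuropeptide genes and 17 to 23 macrophage genes were higher and 6 to 10 choroid plexus genes were lower. Requiring signal on all 3 arrays left 664 higher probes (76.8% of called). Without the background filter there were 2300 and 904 probes (71.8% higher) and 13 genes lower. With signal on any of the 3 arrays, 639 probes and 13 genes were lower (64.3% higher). Median centring, quantile normalization, the authors' table and kept outlier spots left each of the 4 counts within 1.5 times. Of the results of named genes that were called, 1623 kept their call over the alternatives, 197 lost it, and 0 changed direction. Of these losses 93 came from the 4-fold threshold, 44 from normexp and 32 from leaving out the scaling. A call could not be lost against fraction 4, fraction 5 or their mean, at 1.5-fold, or with a looser background filter. All 130 were kept in each of these by the rule itself, so that part of the 1623 does not measure stability. The cause of the normexp losses was not tested. Single spots vary more when dim, so calls of genes near the floor have the larger error given with the repeat spots.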

Other observations

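Gene families outside the lists were counted by symbol after the values had been seen, as a description. Of 28 interferon-induced genes above background in fraction 6 (symbols beginning with Ifi, Ifit, Ifitm or Oas), 16 were higher and none lower. Over all genes 4.08% were higher and 0.726% lower. Of the 16, 15 had their highest value of the 22 fractions there, where 53.3% of all higher probes did. Over the 24 measured on all 3 arrays, 13 were higher (3.13% over all such genes) and the median difference was 1.29. Ifit3, an antiviral effector, was 4.10-fold above the nearer fraction, with a level of 0.62 in fraction 6. Ifitm1, a membrane protein that blocks viral entry, was 4.09-fold above it, with a level of 3.16. Of 19 Ccl and Cxcl chemokine genes, 9 were higher and none lower, against the same 4.08% and 0.726%. Some of the 9 are on the macrophage list. Slc transporters gave 17 higher and 2 lower of 284 (4.08% of all genes were higher), and olfactory receptor genes 9 higher of 81, none of the 9 being above background on all 3 arrays.

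Other genes, also chosen after their values were seen, were among the brighter higher ones on no list. Igfbp6, which binds insulin-like growth factor 2, had a level of 4.12 in fraction 6 and a gap of 4.27-fold. Nupr1, a stress-induced nuclear protein, had a level of 4.41 and a gap of 5.49-fold. Anxa2, an annexin, reached 5.46 with a gap of 2.48-fold.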
